A study of Mus musculus with 36 samples.

Results

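The PDZ-LIM genes are 7 mouse genes, Pdlim1, Pdlim2, Pdlim3, Pdlim4, Pdlim5, Pdlim7 and Ldb3, taken by name out of 52636 genes in the count table. All 7 were among the 15330 genes kept by the filter on low counts, and none was at 0 in any library. Pdlim4 was picked by the study for its level in perisynaptic Schwann cells (PSCs) of these libraries, and the family was taken up around it. For Pdlim4, the values that set PSCs against the other cells are therefore a description, given without a test.

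The cells came from juvenile mice that carried both S100β-GFP, in which GFP is driven by the promoter of the Schwann cell gene S100b, and NG2-dsRed, in which dsRed is driven by the promoter of Cspg4, the gene for the NG2 proteoglycan. Diaphragm, pectoralis, forelimb and hindlimb muscles were dissociated and sorted into 3 gates. NG2DsRed+/S100GFP+ cells are the PSCs (9 libraries), S100GFP+ cells were labelled Schwann cells (8 libraries), and NG2DsRed+ cells carried dsRed alone (10 libraries). Every group carried both transgenes and none received a treatment, and per the methods each replicate was 1 mouse. The methods give an age of P15 to P21. The age labels start at 15 days too, but their upper end goes up by 1 day with each library number, from 21 to 46 days, and was not used.

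PDZ-LIM proteins join a PDZ domain, which in this family binds α-actinin and so ties the protein to actin filaments, to LIM domains, zinc-binding folds that hold kinases and other signalling proteins. Pdlim1, Pdlim2, Pdlim3 and Pdlim4 make up the ALP group, with a lone LIM domain, and Pdlim5, Pdlim7 and Ldb3 the Enigma group, with several. In striated muscle Pdlim3, Pdlim5 and Ldb3 sit at the Z-disc, where actin filaments of neighbouring sarcomeres meet, while in other cells the family lies on stress fibres. PSCs are the non-myelinating glia that cover the nerve terminal at the neuromuscular junction.

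The primer pair with which the study measured Pdlim4 by quantitative PCR shows which stretch of the transcript stood for the gene. The paper ran that PCR on further replicates of each cell type and reports Pdlim4 as highly enriched in PSCs. Capitals mark the 15 bases of the forward primer that lie in exon 1, and its last 5 bases lie in exon 2, so the primer crosses the junction.
Pdlim4 forward: CTCACCATCTCGCGGgttca
Pdlim4 reverse: agatgatcgtggcagccttt
In GRCm38 with the GENCODE M21 annotation, Pdlim4 lies on the minus strand of chromosome 11, at chr11:54054928-54069014. The forward primer matches chr11:54068840-54068854 and chr11:54063782-54063786, and the reverse primer chr11:54063653-54063672 within exon 2. All these bases are coding in transcript Pdlim4-201, where the product is 149 bases long, and each primer matched transcripts of Pdlim4 alone in the annotation.

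RefSeq promoter windows of 300 bases (250 before to 50 after each start, GRCm38.p6) were given for 6 of the 7 genes, with 8 windows in all; Pdlim2 was not among them. The stretches before the start of Pdlim4 and of Ldb3 are shown, the first as the member highest in PSCs and the second for its CArG box. Capitals mark GGGCGG, the core of the GC box bound by Sp1, in Pdlim4 and the CArG box, the site of serum response factor, in Ldb3.
Pdlim4, chr11:54069018-54069267, minus strand: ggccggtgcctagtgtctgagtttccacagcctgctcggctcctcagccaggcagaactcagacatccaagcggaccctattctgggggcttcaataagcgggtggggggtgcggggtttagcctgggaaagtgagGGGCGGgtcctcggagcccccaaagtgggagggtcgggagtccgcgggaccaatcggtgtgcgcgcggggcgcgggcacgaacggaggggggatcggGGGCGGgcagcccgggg
Ldb3, chr14:34588683-34588931, minus strand: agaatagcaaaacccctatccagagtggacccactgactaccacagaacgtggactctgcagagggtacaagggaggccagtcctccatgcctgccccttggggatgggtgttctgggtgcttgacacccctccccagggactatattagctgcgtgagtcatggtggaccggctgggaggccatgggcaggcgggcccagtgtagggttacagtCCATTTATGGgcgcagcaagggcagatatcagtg
The Pdlim4 window was 71.7% G or C with 31 CpG dinucleotides, and the Ldb3 window 58.0% with 6. Searched on both strands, GGGCGG was in 35.7% of all 32851 windows of this length, and the CArG box in 1.63%. GGGCGG occurred 6 times in the Pdlim1 window, 3 times in that of Pdlim4, 2 times in that of Pdlim3 and 1 time each in that of Pdlim7 and in 1 of the 2 Pdlim5 windows, and not in Ldb3. The CArG box was in the 2 Ldb3 windows, which overlap and hold the same site, and in no window of the other members. These matches are letters in a window and were not tested as binding sites.

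The libraries held 5221655 to 9592875 counts, and 3 genes (Lars2, Gm23935 and Gm15564) took 3.64% to 40.0% of them. Levels are CPM, counts scaled to a common library size with TMM factors, and 3 counts came to between 0.237 and 0.709 CPM. The summed level of 11 Schwann cell markers was 2894 to 4199 CPM in PSCs, 92.1 to 501 CPM in S100β-GFP+ libraries and 50.6 to 107 CPM in NG2-dsRed+ libraries. The S100β-GFP+ libraries thus carried this list at a low level. A separate list of 7 myelinating Schwann cell markers summed to 1514 to 3648 CPM there and to 2527 to 3437 CPM in PSCs. In NG2-dsRed+ libraries that list came to 303 to 1047 CPM. S100β-GFP+ libraries also held 9 fibroblast markers at 24896 to 54475 CPM and 8 macrophage and leukocyte markers at 2598 to 19344 CPM. S100β-GFP+ cells are therefore called by their gate. NG2-dsRed+ libraries held 12 pericyte and smooth muscle markers at 7311 to 15789 CPM. They also held the 9 fibroblast markers at 3475 to 25189 CPM and 7 endothelial markers at 1399 to 3283 CPM. In NG2-dsRed+ libraries 26, 28 and 35 the fibroblast sum was above the pericyte and smooth muscle sum. No marker in these lists was at 0 in every library of a cell type. S100β-GFP+ libraries 14, 17 and 22 stood apart, with macrophage markers at 2598 to 7008 CPM against 13864 to 19344 CPM in the other 5 and endothelial markers at 795 to 2469 CPM against 127 to 197 CPM.

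**Figure D1:**
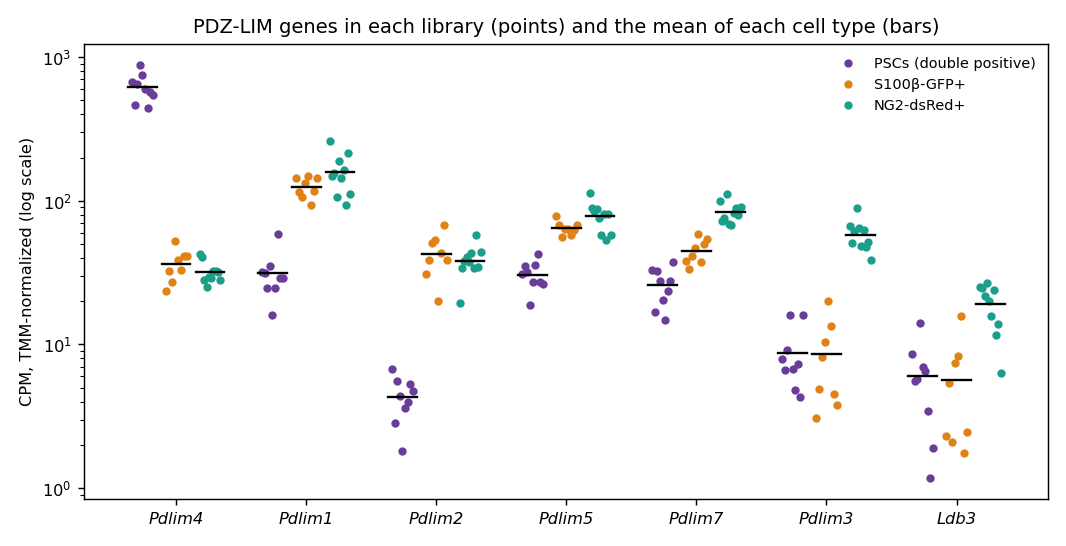
CPM of each PDZ-LIM gene on a log axis, with 1 point per library and a bar at the mean, for PSCs (n = 9), S100β-GFP+ cells (n = 8) and NG2-dsRed+ cells (n = 10). Pdlim4 lies at 442 CPM or more in every PSC library and at or below 52.2 CPM in all others, while Pdlim1, Pdlim2 and Pdlim5 are lower in PSCs and Pdlim3 and Ldb3 are highest on average in NG2-dsRed+ cells.

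Pdlim4, also known as RIL, binds α-actinin, the phosphatase Ptpn13 and the LIM protein Trip6. Its lowest, median and highest levels were 442, 598 and 887 CPM in PSCs, from 3088 to 8504 counts a library. In S100β-GFP+ libraries they were 23.4, 35.9 and 52.2 CPM, and in NG2-dsRed+ libraries 25.1, 30.6 and 42.7 CPM. The lowest PSC library was well above the highest of the others, and the other cell types overlapped with each other. In the same order the means were 621 ± 140 CPM (SD, n = 9), 36.3 ± 9.17 CPM (SD, n = 8) and 32.1 ± 5.59 CPM (SD, n = 10).

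As a description, the PSC level of Pdlim4 was 17.1-fold that of S100β-GFP+ cells (log2 difference 4.10, SE 0.19) and 19.4-fold that of NG2-dsRed+ cells (4.28, SE 0.17). Of 15330 genes, 171 had a larger difference in the first comparison and 259 in the second, and both share the PSC libraries. The difference between S100β-GFP+ and NG2-dsRed+ cells, which the choice of the gene did not use, was 0.18 on the log2 scale (SE 0.16, adjusted p = 0.431, edgeR quasi-likelihood test with Benjamini-Hochberg adjustment) and did not pass the threshold. In bulk RNA a lower level can mean fewer cells with the transcript or less of it per cell, and these cannot be told apart.

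Per kb of exon, the scale on which genes can be set side by side, Pdlim4 stood at 243 ± 54.6 CPM per kb in PSCs (SD, n = 9). That mean ranked 125 of 15316 genes, the top 0.816%. In S100β-GFP+ cells the level was 14.2 CPM per kb, in the top 16.5%, and in NG2-dsRed+ cells 12.5 CPM per kb, in the top 17.8%.

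The make-up of the family differed between the cell types. Pdlim4 supplied 92.7 ± 2.24% of the summed CPM per kb of the 7 genes in PSCs (SD, n = 9), from 87.9% to 95.7%, and was first in 9 of 9 libraries. S100β-GFP+ cells gave Pdlim4 a share of 21.0 ± 3.34% (SD, n = 8), and NG2-dsRed+ cells one of 13.7 ± 2.04% (SD, n = 10). Pdlim1 came first instead, in 8 of 8 S100β-GFP+ libraries with a mean share of 35.7 ± 4.90% and in 8 of 10 NG2-dsRed+ libraries with 32.4 ± 6.88%. Pdlim7 came first in the other 2. Pdlim1 held 2.43 ± 1.34% in PSCs.

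Without Pdlim4 the sum of the remaining 6 genes was 18.4 ± 3.47 CPM per kb in PSCs, from 13.2 to 23.7. The sum was 52.4 ± 4.64 in S100β-GFP+ cells, from 46.7 to 57.1, and 79.2 ± 11.5 in NG2-dsRed+ cells, from 64.7 to 104. The ranges of the 3 cell types did not overlap, and PSCs were lowest. With Pdlim4 the sum was 261 ± 54.3, 66.6 ± 7.59 and 91.7 ± 12.7 CPM per kb, and PSCs were highest.

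**Figure D2:**
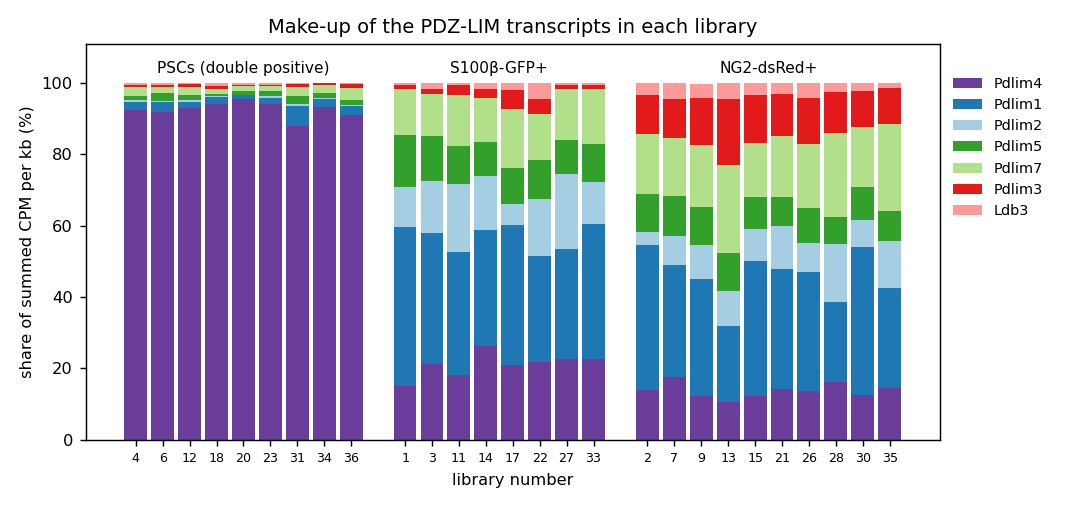
Share of each gene in the summed CPM per kb of the 7 PDZ-LIM genes (0 to 100%), with 1 stacked bar for each numbered library. Pdlim4 takes 87.9% to 95.7% of the bar in PSCs and at most 26.4% in the other cell types, where Pdlim1 is the largest segment in all but 2 libraries.

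Within PSCs, Pdlim4 was followed by Pdlim1 at 5.93, Pdlim7 at 5.35, Pdlim5 at 3.45, Pdlim3 at 1.70, Ldb3 at 0.982 and Pdlim2 at 0.966 CPM per kb. Only the step from Pdlim4 to Pdlim1 had no overlap between libraries. In S100β-GFP+ cells the order was Pdlim1 at 23.8, Pdlim4 at 14.2, Pdlim2 at 9.55, Pdlim7 at 9.25, Pdlim5 at 7.29, Pdlim3 at 1.66 and Ldb3 at 0.930 CPM per kb, and only Pdlim5 and Pdlim3 did not overlap. NG2-dsRed+ cells held Pdlim1 at 30.2, Pdlim7 at 17.3, Pdlim4 at 12.5, Pdlim3 at 11.3, Pdlim5 at 8.80, Pdlim2 at 8.54 and Ldb3 at 3.11 CPM per kb, and all neighbours in that order overlapped.

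The other 6 genes were compared to see whether they followed Pdlim4. Against S100β-GFP+ cells, 4 of the 6 were lower in PSCs, 0 were higher and 2 did not pass, where 47.0% of the 15330 genes tested passed (22.9% higher and 24.1% lower). Against NG2-dsRed+ cells all 6 were lower, where 44.0% of genes passed (23.1% lower). Between S100β-GFP+ and NG2-dsRed+ cells 3 of the 6 were lower in S100β-GFP+ cells and 3 did not pass, where 33.3% of genes passed (15.2% lower). The median log2 difference of the 6 was -0.93, -2.02 and -0.62 in these comparisons, while that of all genes was 0.04, 0.02 and -0.02. Libraries did not overlap for 3 of the 6 in the first comparison (10.3% of all genes were lower without overlap and 5.24% higher), for 5 in the second (8.83% lower and 5.08% higher) and for 2 in the third (4.38% lower and 7.21% higher), and each of them was lower. The adjusted p-values below come from the same edgeR fit across all genes.

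**Figure D3:**
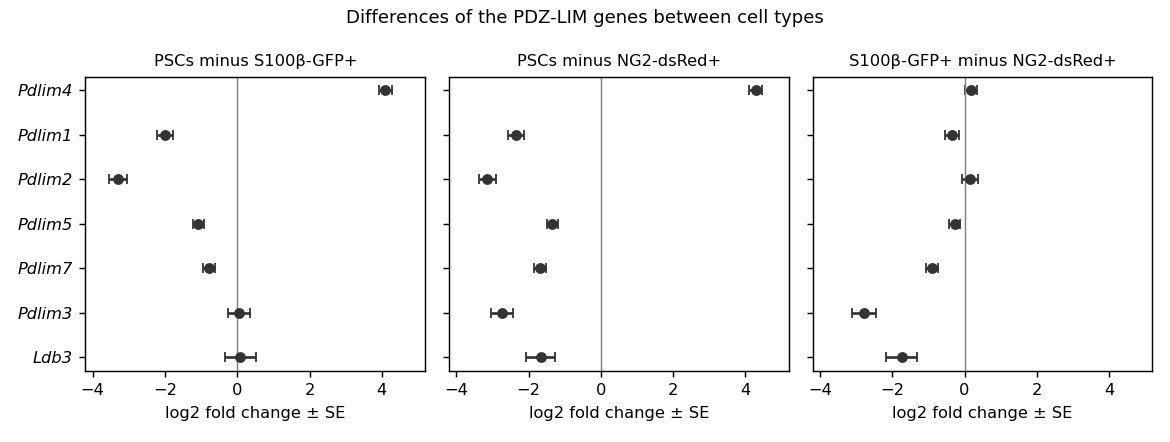
Log2 fold change of each PDZ-LIM gene with its standard error, from the fit across all genes, for PSCs minus S100β-GFP+ cells, PSCs minus NG2-dsRed+ cells and S100β-GFP+ minus NG2-dsRed+ cells. Pdlim4 lies at 4.10 and 4.28 in the PSC panels, and Pdlim1, Pdlim2, Pdlim5 and Pdlim7 lie below 0 in both.

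Pdlim1, also called CLP36 or Elfin, carries the kinase Stk35 and the actin-bundling protein palladin to stress fibres. Its lowest, median and highest levels were 16.1, 29.1 and 58.8 CPM in PSCs, 93.0, 125 and 149 CPM in S100β-GFP+ cells and 92.8, 153 and 259 CPM in NG2-dsRed+ cells. Every PSC library was below every other library. Pdlim1 was 4.01-fold lower in PSCs than in S100β-GFP+ cells (log2 difference -2.00, SE 0.21, adjusted p = 3.82e-09) and 5.09-fold lower than in NG2-dsRed+ cells (-2.35, SE 0.21, adjusted p = 1.42e-10). S100β-GFP+ and NG2-dsRed+ cells overlapped, with a log2 difference of -0.35 (SE 0.20, adjusted p = 0.198). PSC library 31, the highest for Pdlim1, also carried 9 tenocyte and cartilage markers at 4604 CPM against 11.0 to 122 CPM in the other PSC libraries, and the part of this in its Pdlim1 level was not tested.

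Pdlim2, also called Mystique or SLIM, is a nuclear and cytoskeletal protein that marks Stat4 and the NF-κB subunit Rela for destruction. Across libraries the lowest, median and highest levels were 1.82, 4.38 and 6.78 CPM in PSCs, 19.9, 40.8 and 68.1 CPM in S100β-GFP+ cells and 19.4, 37.7 and 57.5 CPM in NG2-dsRed+ cells. No PSC library reached the lowest of the others. This was the largest fall among the members, 9.84-fold against S100β-GFP+ cells (log2 difference -3.30, SE 0.24, adjusted p = 3.88e-12) and 8.79-fold against NG2-dsRed+ cells (-3.14, SE 0.24, adjusted p = 6.52e-12). Of 15330 genes, 869 and 489 had a smaller log2 difference. The other cell types differed by 0.16 (SE 0.22, adjusted p = 0.615).

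Pdlim3, or ALP, binds α-actinin 2 at the Z-disc and is also known from smooth muscle. Its lowest, median and highest levels were 4.28, 7.29 and 16.1 CPM in PSCs, 3.05, 6.52 and 19.9 CPM in S100β-GFP+ cells and 38.7, 56.5 and 88.8 CPM in NG2-dsRed+ cells. NG2-dsRed+ cells did not overlap with either of the others, which covered nearly the same range. Pdlim3 was 6.64-fold lower in PSCs (log2 difference -2.73, SE 0.31, adjusted p = 2.13e-08) and 6.87-fold lower in S100β-GFP+ cells (-2.78, SE 0.33, adjusted p = 6.78e-08) than in NG2-dsRed+ cells, and the latter difference was among the largest, with 189 of 15330 genes below it. PSCs and S100β-GFP+ cells differed by 0.05 (SE 0.31, adjusted p = 0.914).

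The S100β-GFP+ libraries 14, 17 and 22 held 10.4, 19.9 and 13.5 CPM of Pdlim3, and the other 5 held 3.05 to 8.17 CPM. Without these 3 libraries Pdlim3 passed the test, with PSCs above S100β-GFP+ cells by 0.88 on the log2 scale (SE 0.29, adjusted p = 0.0177). They were the highest of their group for Pdlim3, so leaving them out raises the difference by construction and that p-value is no support for it. The pericyte and smooth muscle markers summed to 994 to 1660 CPM in these libraries and to 239.7 to 919 CPM in the other 5. Within cell types, Pdlim3 and this sum had Pearson's r of 0.47 in PSCs (n = 9, permutation p = 0.206, adjusted p = 0.206), 0.73 in S100β-GFP+ cells (n = 8, permutation p = 0.0354, adjusted p = 0.0708) and 0.76 in NG2-dsRed+ cells (n = 10, permutation p = 0.00964, adjusted p = 0.0289), adjusted over 6 relations. Spearman's rho was 0.47 (permutation p = 0.213, adjusted p = 0.213), 0.76 (permutation p = 0.0368, adjusted p = 0.0736) and 0.73 (permutation p = 0.02, adjusted p = 0.06). Without the 2 libraries farthest from the median marker sum, r was 0.33, 0.81 and 0.53, with permutation p-values of 0.478, 0.0625 and 0.17. The relation in NG2-dsRed+ cells thus did not pass without those 2 libraries, over fewer libraries and a narrower range of marker sums.

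Pdlim5, or ENH, is a scaffold for protein kinase C isoforms and holds the transcriptional inhibitor Id2 in the cytoplasm. PSCs had 18.9, 30.8 and 42.5 CPM as the lowest, median and highest level, against 55.7, 64.0 and 78.7 CPM in S100β-GFP+ cells and 53.2, 80.9 and 113 CPM in NG2-dsRed+ cells. PSCs lay below both, without overlap. The gene was 2.12-fold lower in PSCs than in S100β-GFP+ cells (log2 difference -1.08, SE 0.15, adjusted p = 7.04e-07) and 2.55-fold lower than in NG2-dsRed+ cells (-1.35, SE 0.15, adjusted p = 8.6e-09). S100β-GFP+ and NG2-dsRed+ cells differed by -0.27 (SE 0.15, adjusted p = 0.166).

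Pdlim7, or Enigma, binds the insulin receptor, the receptor tyrosine kinase Ret and β-tropomyosin. The lowest, median and highest levels were 14.9, 27.5 and 37.4 CPM in PSCs, 33.5, 43.8 and 58.4 CPM in S100β-GFP+ cells and 67.3, 80.9 and 112 CPM in NG2-dsRed+ cells. The cell types formed a ladder in which PSCs and S100β-GFP+ cells overlapped and NG2-dsRed+ cells stood clear. All steps passed, at 1.73-fold between PSCs and S100β-GFP+ cells (log2 difference -0.79, SE 0.17, adjusted p = 0.000257), 3.23-fold between PSCs and NG2-dsRed+ cells (-1.69, SE 0.16, adjusted p = 8.71e-10) and 1.87-fold between S100β-GFP+ and NG2-dsRed+ cells (-0.90, SE 0.16, adjusted p = 6.51e-05). Pdlim7 shares 68 exon bases with the microRNA gene Mir6945, which had 0 counts.

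Ldb3, also called ZASP or Cypher, stabilizes the Z-disc of striated muscle and binds myotilin and the myozenins. Its lowest, median and highest levels were 1.17, 5.74 and 14.0 CPM in PSCs, 1.74, 3.91 and 15.8 CPM in S100β-GFP+ cells and 6.31, 20.9 and 26.7 CPM in NG2-dsRed+ cells. All 3 cell types overlapped, and the spread within each was wide. Ldb3 was 3.17-fold lower in PSCs (log2 difference -1.67, SE 0.41, adjusted p = 0.00134) and 3.35-fold lower in S100β-GFP+ cells (-1.74, SE 0.43, adjusted p = 0.00204) than in NG2-dsRed+ cells. PSCs and S100β-GFP+ cells differed by 0.08 (SE 0.43, adjusted p = 0.903). S100β-GFP+ libraries 14, 17 and 22 held 7.41, 8.28 and 15.8 CPM, and the others of that group at most 5.37 CPM. Without libraries 14, 17 and 22 the difference was 1.11 (SE 0.44, adjusted p = 0.0443). Leaving out the highest libraries raises it by construction, so that p-value is no support for a difference.

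The level of Ldb3 in PSCs moved with 15 muscle fibre markers, whose sum ran from 260.1 to 2002 CPM and was highest in library 18, the library with the most Ldb3. Over the 9 PSC libraries Pearson's r was 0.86 (permutation p = 0.00344, adjusted p = 0.0206) and Spearman's rho 0.93 (permutation p = 0.00075, adjusted p = 0.0045). Without the 2 libraries farthest from the median marker sum, r was 0.59 (n = 7, permutation p = 0.156). The linear relation thus did not pass without them, over fewer libraries and a narrower range of marker sums. In S100β-GFP+ cells r was 0.69 (n = 8, permutation p = 0.0672, adjusted p = 0.0806) and rho 0.60 (permutation p = 0.132, adjusted p = 0.158), and r was 0.62 without the 2 farthest (permutation p = 0.218). In NG2-dsRed+ cells r was 0.61 (n = 10, permutation p = 0.0668, adjusted p = 0.0806) and rho 0.64 (permutation p = 0.0533, adjusted p = 0.0799), and r was 0.68 without the 2 farthest (permutation p = 0.0671). The median sum of the fibre markers was 604 CPM in PSCs, 406 CPM in S100β-GFP+ cells and 490 CPM in NG2-dsRed+ cells, where Ldb3 was highest. The part of muscle fibre RNA in these levels was not tested.

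**Figure D4:**
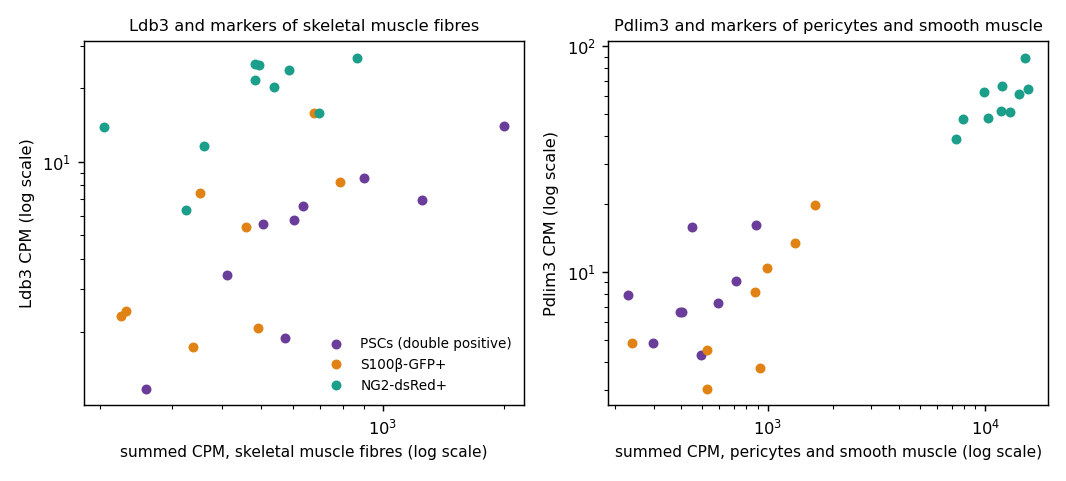
Left, Ldb3 CPM against the summed CPM of 15 muscle fibre markers, and right, Pdlim3 CPM against that of 12 pericyte and smooth muscle markers, with 1 point per library and log scales on both axes. PSC libraries with more fibre marker signal have more Ldb3, while NG2-dsRed+ libraries have more Ldb3 than PSC libraries at a like marker sum. For Pdlim3 the NG2-dsRed+ libraries sit apart at 7311 to 15789 CPM of marker signal.

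None of the α-actinins, the anchor of the PDZ domain, passed the test as higher in PSCs. Against S100β-GFP+ cells 1 of the 4 was lower in PSCs and 0 were higher, and against NG2-dsRed+ cells 2 were lower and 0 higher, where 24.1% and 23.1% of all genes were lower. With 4 genes these counts are no result about the group. The non-muscle Actn4 stood at 192 CPM in PSCs, 136 CPM in S100β-GFP+ cells and 419.9 CPM in NG2-dsRed+ cells. It was lower in PSCs than in NG2-dsRed+ cells (log2 difference -1.13, SE 0.23, adjusted p = 0.000158), with 0.49 against S100β-GFP+ cells (SE 0.24, adjusted p = 0.0898). Actn1, also non-muscle, fell from 155 CPM in NG2-dsRed+ cells to 18.1 CPM in PSCs, by 3.10 on the log2 scale (SE 0.27, adjusted p = 1.76e-10). The muscle forms Actn2, at 3.98, 1.97 and 4.39 CPM, and Actn3, at 24.7, 15.1 and 14.0 CPM, passed no comparison.

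Of 21 known binding partners of the 7 proteins, 16 were tested. Against S100β-GFP+ cells 5 were higher in PSCs and 4 lower, with a median log2 difference of 0.25, and against NG2-dsRed+ cells 5 were higher and 5 lower, with a median of 0.13. Over all genes 22.9% were higher and 24.1% lower in the first comparison and 20.9% and 23.1% in the second, so these counts are no result about the partners as a group. Among the partners of Pdlim4, the tyrosine kinase Src was 49.4 CPM in PSCs, 16.3 CPM in S100β-GFP+ cells and 20.9 CPM in NG2-dsRed+ cells, a rise of 1.60 (SE 0.22, adjusted p = 6.15e-07) and 1.24 (SE 0.20, adjusted p = 1e-05) on the log2 scale. Trip6, at 44.5, 28.5 and 30.3 CPM, rose by 0.64 (SE 0.20, adjusted p = 0.0109) and 0.55 (SE 0.19, adjusted p = 0.0197). PSC library 18 held 102 CPM of Trip6, and the PSC mean was 37.3 CPM without it. Ptpn13, at 50.4, 24.5 and 38.5 CPM, rose against S100β-GFP+ cells by 1.04 (SE 0.19, adjusted p = 4.63e-05), with 0.39 against NG2-dsRed+ cells (SE 0.18, adjusted p = 0.0762). Ranges overlapped for all 3, and the glutamate receptor gene Gria1 did not pass the filter.

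Partners of the genes that were lower in PSCs went both ways. Palld, the palladin partner of Pdlim1, was 60.9 CPM in PSCs, 73.6 CPM in S100β-GFP+ cells and 173 CPM in NG2-dsRed+ cells, and was lower than in the last (log2 difference -1.51, SE 0.18, adjusted p = 3.77e-08). Tpm2, the β-tropomyosin bound by Pdlim7, was 114, 68.8 and 584 CPM and also lower than in NG2-dsRed+ cells (-2.36, SE 0.31, adjusted p = 2.83e-07). Stk35, a partner of Pdlim1, was 15.7 CPM in PSCs against 31.6 and 25.3 CPM. It was lower in both comparisons (-1.01, SE 0.28, adjusted p = 0.00325, and -0.69, SE 0.26, adjusted p = 0.0325). Ret, a partner of Pdlim7, was 1.98 CPM against 5.93 and 12.4 CPM, with adjusted p-values of 0.00835 and 3.46e-05. Tbx5, also bound by Pdlim7, was lower in both, at 0.103 CPM against 9.37 and 1.08 CPM. The kinase Prkce, a partner of Pdlim5, was higher in PSCs without overlap, at 47.0 CPM against 23.8 CPM (0.98, SE 0.16, adjusted p = 5.2e-06) and 24.8 CPM (0.92, SE 0.14, adjusted p = 5.38e-06). Prkca, a partner of Ldb3, was likewise higher without overlap, at 61.0 CPM against 35.5 and 17.0 CPM. Id2 was 58.0 CPM in PSCs and 373 CPM in S100β-GFP+ cells (-2.69, SE 0.25, adjusted p = 2.56e-10), and Rela, a target of Pdlim2, stood at 81.6, 87.4 and 87.5 CPM, with adjusted p-values of 0.613 and 0.591.

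**Figure D5:**
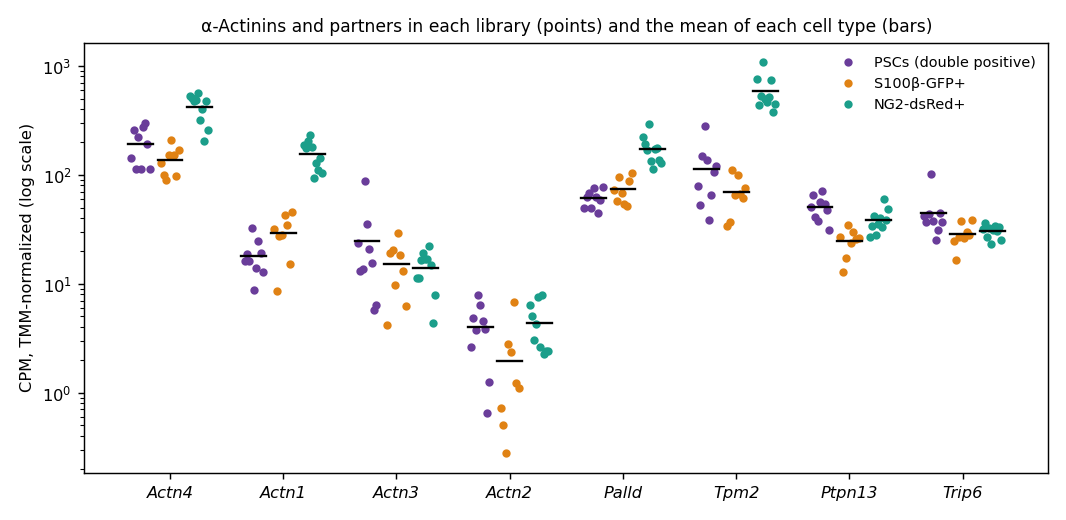
CPM of the 4 α-actinins and of 4 partners of PDZ-LIM proteins on a log axis, with 1 point per library and a bar at the mean for PSCs (n = 9), S100β-GFP+ cells (n = 8) and NG2-dsRed+ cells (n = 10). Actn1, Palld and Tpm2 are highest in NG2-dsRed+ cells without overlap, while Ptpn13 and Trip6 have their highest mean in PSCs and overlap with the others.

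Among other LIM proteins of the actin cytoskeleton, of 33 tested of 35, 7 were higher and 12 lower than in S100β-GFP+ cells (median log2 difference -0.34), and 5 were higher and 18 lower than in NG2-dsRed+ cells (-0.78). The rest did not pass, 14 in the first comparison and 10 in the second, beside 22.9% higher and 24.1% lower over all genes in the first and 20.9% and 23.1% in the second. Zyxin (Zyx), a focal adhesion protein, fell to 37.7 CPM from 382 CPM in S100β-GFP+ cells (-3.34, SE 0.20, adjusted p = 8.23e-14) and 132 CPM in NG2-dsRed+ cells (-1.81, SE 0.18, adjusted p = 2.78e-09). Limch1, which activates non-muscle myosin II, was higher in PSCs without overlap in both comparisons, at 283 CPM against 78.4 CPM (1.85, SE 0.22, adjusted p = 3.72e-08) and 66.5 CPM (2.09, SE 0.20, adjusted p = 1.25e-09). Csrp1 rose from 84.2 CPM in S100β-GFP+ cells to 864 CPM in PSCs without overlap (3.36, SE 0.39, adjusted p = 2.4e-08), and against 331 CPM in NG2-dsRed+ cells it rose with overlap (1.38, SE 0.33, adjusted p = 0.00106). Pdlim4 was 4.10 and 4.28 on the same scale.

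The genes whose log2 CPM followed that of Pdlim4 most closely over the 27 libraries were Ncam1 (Pearson's r = 0.984), Gm47990 (0.982), Gm20754 (0.981), Cyp2j6 (0.981) and Col20a1 (0.980). Ncam1, a neural cell adhesion molecule, was 574 CPM in PSCs, 17.8 CPM in S100β-GFP+ cells and 12.7 CPM in NG2-dsRed+ cells, and Col20a1, a collagen gene, was 1599, 8.68 and 6.81 CPM. Pdlim3 was followed by Olfr558 (0.965), Gucy1a1 (0.959), a subunit of the nitric oxide receptor, and Gprc5c (0.950), all highest in NG2-dsRed+ cells. For Ldb3 the closest were Sept4 (0.874), Unc45b (0.872), a myosin chaperone, and Tgtp1 (0.869). Pdlim1 was closest to Errfi1 (0.963), Itga5 (0.957) and Tmem184b (0.953), Pdlim2 to Epb41l2 (0.956), Thy1 (0.955) and C1s1 (0.954), Pdlim5 to Picalm (0.953), Macf1 (0.949) and Swap70 (0.948), and Pdlim7 to Mustn1 (0.929), Aoc3 (0.920) and Adamts4 (0.917). These points are libraries of 3 cell types, and no test was made.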

How the data were processed

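RNA from 27 sorted samples was amplified with the SMART-Seq kit and sequenced. Gene counts were deposited by the authors as raw whole numbers. Reads had been trimmed with ea-utils and Btrim, aligned with HISAT2 (GRCm38 in the processing notes) and counted with HTSeq, with versions and strand setting not given in the sources used here. The labels list 36 libraries, and columns were used for 9 libraries of PSCs, 8 of S100β-GFP+ and 10 of NG2-dsRed+ cells. The table holds 1 more S100β-GFP+ library than the methods keep after quality control, and which it is was not given in the sources used here. The members and gene lists were chosen with earlier results of these data known.

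Genes were filtered with filterByExpr (minimum count 10) and fitted over all 3 cell types by the edgeR quasi-likelihood test (edgeR 4.0.16, R 4.3.3, TMM scaling), with Benjamini-Hochberg adjusted p under 0.05 called over all 15330 genes and no covariate. The script was tested on simulated data. CPM were divided by GENCODE M21 exon length where genes were compared, and 99.72% of table genes were in that annotation. Named genes are the 7 members, all listed genes, and the 5 (Pdlim4) or 3 genes with the highest Pearson correlation over libraries (log2 CPM, prior count 2). Relations were computed on log2(CPM + 1) within cell types and tested two-sided by permutation, exact below 10 libraries and with 100000 resamples at 10. Alternatives were DESeq2 1.42.0, its size factors, other filters, limma-voom 3.58.1 with quality weights, only the groups compared, a term for the share of 3 abundant genes, and libraries left out. No pair of libraries had the same counts. Amplified reads without molecular identifiers are not independent molecules.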

Additional observations from a re-analysis of the deposited data

Results flagged for a closer look

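A library at the edge of its group stood far from the others, by Dixon's test at the 95% level, in 12 of 81 gene and cell type groups tested, 2 of them among the 21 groups of PDZ-LIM genes. For normally distributed values and independent groups, chance alone gives about 1 in 20. The test was run on CPM, and several of the 12 share PSC library 18, so the count cannot be set against that rate. For the members, Pdlim1 in PSC library 31 was 58.8 CPM, with the next at 35.0 CPM and a mean of 27.7 CPM without it, and Ldb3 in S100β-GFP+ library 22 was 15.8 CPM, with the next at 8.28 CPM and a mean of 4.23 CPM without it. PSC library 18, which also held the highest sum of muscle fibre markers (2002 CPM), was highest for Actn3 at 88.1 CPM, Trip6 at 102 CPM, Rela at 148 CPM, Prkcb at 20.7 CPM, Tpm2 at 279.6 CPM, Myoz1 at 23.1 CPM and Myot at 31.9 CPM. Actn2 was highest in S100β-GFP+ library 22 at 6.75 CPM, and Tbx5 in PSC library 34 at 0.648 CPM. Prkce was lowest in S100β-GFP+ library 11 at 12.7 CPM, with the next at 22.9 CPM.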

How the results depend on the processing

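Of 735 alternative values for the 21 differences of the 7 genes, 720 kept their direction and their side of the threshold, and none lost a call. Leaving out 1 library turned the sign in 12, all of Pdlim3 or Ldb3 between PSCs and S100β-GFP+ cells and none of them called: Pdlim3 ran from -0.08 to 0.34 and Ldb3 from -0.14 to 0.50, so neither has a direction there. Another 3 gained a call: Pdlim5 between S100β-GFP+ and NG2-dsRed+ cells under limma-voom with quality weights (-0.29, SE 0.12, adjusted p = 0.0406), and Pdlim3 and Ldb3 between PSCs and S100β-GFP+ cells without S100β-GFP+ libraries 14, 17 and 22 (0.88 and 1.11). S100β-GFP+ libraries 14, 17 and 22 were the highest of their group for Pdlim3 and Ldb3, so leaving them out raises both differences by construction. Pdlim4 ranged from 4.02 to 4.28 and from 4.22 to 4.39 in the PSC comparisons. Leaving out each library in turn gave 6825 to 7918, 6315 to 7412 and 4617 to 5940 genes called in the 3 comparisons, against 7198, 6743 and 5098.

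Without a filter on low counts every gene with any count was tested, which is more than the 15330 genes of the main fit. Then 16556 genes were called between PSCs and S100β-GFP+ cells (3907 higher, 12649 lower) and 10586 between S100β-GFP+ and NG2-dsRed+ cells (8194 higher, 2392 lower), and the cause was not tested. The share of genes called is not given, so these counts cannot be set against those of the main fit. In another setting the library size was the raw count total without Lars2, Gm23935 and Gm15564, and no TMM factors were applied. Both changes enter the levels, and their parts were not separated. In PSCs, then S100β-GFP+, then NG2-dsRed+ cells, Pdlim1 rose to 47.2, 152 and 220.3 CPM. Pdlim5 rose to 46.1, 78.7 and 108 CPM and Pdlim7 to 38.0, 54.4 and 115 CPM. In PSCs and NG2-dsRed+ cells Pdlim2 rose to 6.43 and 52.7 CPM and Pdlim4 to 918 and 44.3 CPM. In NG2-dsRed+ cells Pdlim3 rose to 80.5 CPM and Ldb3 to 26.4 CPM. Not divided by exon length, the share of Pdlim4 was 84.8%, 11.0% and 6.91% in the 3 cell types and that of Pdlim1 in PSCs 4.52%. No paired analysis was possible because the library numbers are unique over the cell types. Depth limits Ldb3 most, with as few as 9 counts in a PSC library and 10 in an S100β-GFP+ library.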
